A study of Mus musculus with 12 samples.

Results

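The Schlafen genes of the mouse encode a family of immune and growth regulators. The 7 members described here, Slfn1, Slfn2, Slfn3, Slfn4, Slfn5, Slfn8 and Slfn9, were chosen by gene symbol from the 23284 genes of a count table of the terminal ileum, the last stretch of the small intestine. They were chosen with earlier results of these libraries known, so their fold changes and calls are a description and no independent support for a response of the family. All 7 were among the 15866 genes with enough reads to be tested.

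The libraries came from 12 mice in 4 groups of 3, 1 library per mouse. Rag1-/- mice lack a subunit of the recombinase that assembles antigen receptors, and so have no mature T or B cells while keeping innate lymphoid and myeloid cells. Without the alpha chain of the T cell receptor, Tcra-/- mice have no conventional alpha beta T cells but keep gamma delta T cells and B cells. The co-housed Tcra-/- mice shared a cage with wild-type males of matched age for 4 to 8 weeks, and the separately housed Tcra-/- mice did not. The fourth group was wild-type C57BL/6. Single mice are named as labelled, with RAG1x, TCRaCox, TCRaSepx and WTB6x standing for Rag1-/-, co-housed, separately housed and wild-type mice. All mice came from Taconic and were held free of specific pathogens. The ages of the mice, the sex of the other groups, the number of cages and the deleted part of each gene were not given in the sources used here. The design text names 2 comparisons, Rag1-/- with wild type and co-housed with separately housed Tcra-/- mice. Each Tcra-/- group was also set against wild type here, so that every member has a value in all 4 groups. Mice of 1 cage are not independent replicates of housing, and p-values measure the spread between these mice only.

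Schlafen proteins occur in mammals as short, intermediate and long forms. All share an N-terminal core, and the long forms add a helicase-like C-terminal part. Many members are induced by interferons, the cytokines that signal through receptor-bound kinases and STAT factors to antiviral genes, and several restrain growth or viral replication. In mice, Slfn2 maintains the quiescence of T cells and monocytes, Slfn1 slows the growth of thymocytes when expressed from a transgene, and Slfn4 is induced in macrophages and other myeloid cells. Slfn3 has been tied to differentiation of the intestinal epithelium in the rat.

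Total counts per library lay between 42717064 and 50581616 in Rag1-/- mice, 37061276 and 43496528 in co-housed Tcra-/- mice, 40294353 and 44574864 in separately housed Tcra-/- mice, and 42067145 and 42312100 in wild-type mice. Rag1 itself had 75, 69 and 92 reads in the mice labelled Rag1-/-, against 0 in each of the other 9, the reverse of a lost transcript. With the deleted part of the gene not given, these reads do not check the label. Markers of B cells follow the label, with a summed level of 3.69 to 4.58 CPM (counts scaled to library size) in Rag1-/- mice, against 175.9 to 221.5 CPM in wild-type mice. Tcra is not a row of the table. Ileum markers were present in all 12 libraries, with the ileal bile acid binding protein Fabp6 at 2688 to 4109 CPM and the bile acid transporter Slc10a2 at 170.4 to 312.0 CPM.

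All 7 genes lie in 1 cluster of 263 kb on chromosome 11 of the mm9 assembly, from 82765604 to 83028656. In order along the chromosome they are Slfn5 on the plus strand, Slfn9 and Slfn8 on the minus strand, and Slfn2, Slfn1, Slfn4 and Slfn3 on the plus strand. The pseudogene Slfn10-ps lies between Slfn8 and Slfn2 on the minus strand. The longest annotated coding sequences fall into the 3 size classes, with 1014 bases for Slfn1 and 1137 for Slfn2, 1923 for Slfn3 and 1809 for Slfn4, and 2655, 2733 and 2733 for Slfn5, Slfn8 and Slfn9. Coding sequences of Slfn3 and Slfn4 were 92.2% identical and those of Slfn8 and Slfn9 92.7%, while every other pair lay between 57.7 and 75.4%. Slfn3 and Slfn4 share 252 stretches of 50 bases, 7.39% of those of Slfn3 and 6.28% of those of Slfn4, and Slfn8 and Slfn9 share 389, 9.3% and 6.52%. Handling of reads that match several genes was not given in the sources used here. The split between the members of either pair is therefore uncertain, and more so for Slfn3 and Slfn8, the rarer of each pair. Slfn5 overlaps 77 exonic bases of 1 other gene, 1700003F17Rik, and no other member shares exonic bases with another gene.

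RefSeq promoter windows (GRCm38.p6, 250 bases before the annotated start to 50 after) were matched for all 7 genes, with 8 windows because Slfn8 has 2 starts. Those of Slfn2, Slfn4 and Slfn5 are shown because these members were higher in both stated comparisons, and that of Slfn9 for a motif it shares with Slfn5. In the windows of Slfn2 and Slfn4 the capitals mark a run of 11 bases that both hold, and in those of Slfn5 and Slfn9 a core of the interferon-stimulated response element.
Slfn2, chr11:83064862-83065161, plus strand: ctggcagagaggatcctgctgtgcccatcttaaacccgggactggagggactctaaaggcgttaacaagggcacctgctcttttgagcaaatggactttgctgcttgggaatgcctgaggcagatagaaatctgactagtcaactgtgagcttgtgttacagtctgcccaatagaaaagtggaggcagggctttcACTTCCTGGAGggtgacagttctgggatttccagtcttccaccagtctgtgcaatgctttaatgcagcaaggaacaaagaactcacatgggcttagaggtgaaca
Slfn4, chr11:83174936-83175235, plus strand: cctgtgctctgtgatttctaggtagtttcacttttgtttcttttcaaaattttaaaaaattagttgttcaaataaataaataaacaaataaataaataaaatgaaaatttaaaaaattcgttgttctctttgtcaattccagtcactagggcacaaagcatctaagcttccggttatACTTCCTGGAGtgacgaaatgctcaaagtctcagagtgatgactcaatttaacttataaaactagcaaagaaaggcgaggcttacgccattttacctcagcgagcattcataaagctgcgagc
Slfn5, chr11:82951852-82952151, plus strand: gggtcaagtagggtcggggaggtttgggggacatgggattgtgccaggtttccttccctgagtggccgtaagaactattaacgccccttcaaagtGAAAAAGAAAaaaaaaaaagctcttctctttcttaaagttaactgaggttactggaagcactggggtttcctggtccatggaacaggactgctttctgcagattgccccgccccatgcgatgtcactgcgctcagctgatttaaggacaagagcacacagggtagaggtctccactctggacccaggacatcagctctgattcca
Slfn9, chr11:82991781-82992080, minus strand: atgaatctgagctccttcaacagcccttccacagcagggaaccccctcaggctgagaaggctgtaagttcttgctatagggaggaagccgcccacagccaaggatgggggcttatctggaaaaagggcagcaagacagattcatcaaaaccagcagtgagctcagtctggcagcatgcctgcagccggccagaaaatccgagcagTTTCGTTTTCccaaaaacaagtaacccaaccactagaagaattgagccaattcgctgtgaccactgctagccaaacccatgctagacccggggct
The response element core searched was GAAA, any 2 bases, GAAA, on both strands, and Slfn9 carries it on the opposite strand. It began 155 bases before the start of Slfn5, 45 before that of Slfn9 and 48 before the first start of Slfn8, whose second window holds the same copy. In all, 4 of the 8 windows held it, against 3.44% of all 32851 windows of the mouse. No member window held the gamma-activated site core TTCNNNGAA, present in 8.3% of all windows. The run ACTTCCTGGAG was noticed after the windows were seen. It began 55 bases before the start of Slfn2, 73 before that of Slfn4 and 74 before that of Slfn1, and 24 windows of the mouse (0.0731%) held it. Slfn3 shared 9 of these bases, ACTTCCTGG, found in 277 windows (0.843%). A match of letters describes the window and is no evidence of binding, and the genes of a cluster that arose by duplication share sequence.

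**Figure D1:**
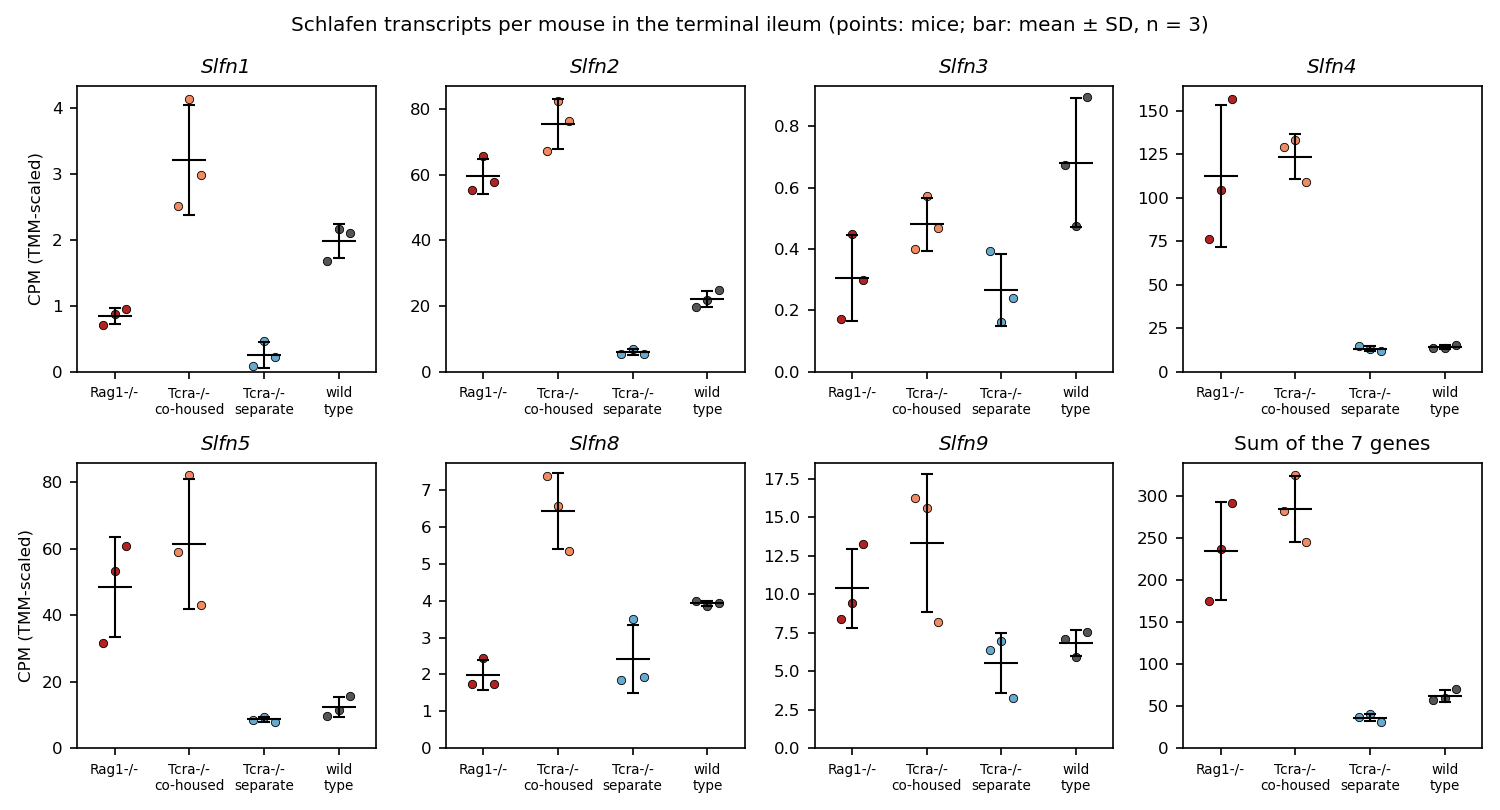
Level of each Schlafen gene and of their sum in CPM (vertical axis, from 0, a scale of its own in each panel) in 12 mice. Points are mice, bars the mean ± SD of 3 mice, and the sum was 175 to 292 CPM in Rag1-/- mice and 246 to 325 CPM in co-housed Tcra-/- mice, against 31.5 to 40.6 CPM in separately housed Tcra-/- mice and 57.0 to 70.2 CPM in wild-type mice.

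Summed over the 7 genes, Schlafen transcripts averaged 234 ± 58.7 CPM in Rag1-/- mice, 284 ± 39.6 CPM in co-housed Tcra-/- mice, 36.5 ± 4.64 CPM in separately housed Tcra-/- mice and 62.1 ± 7.06 CPM in wild-type mice (SD, n = 3 each). All 6 Rag1-/- and co-housed libraries lay above all 6 others, as the plot of levels by mouse shows. These are levels in whole tissue, in which more cells of a type cannot be told apart from more RNA per cell. Slfn2, Slfn4 and Slfn5 made up most of the total in every group.

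Of the short members, Slfn2 was the most abundant gene of the family per kilobase of the deposited gene length, but not by CPM alone in every group. Its level was 55.3, 65.6 and 57.8 CPM in Rag1-/- mice, 67.3, 82.6 and 76.5 CPM in co-housed Tcra-/- mice, 5.4, 6.97 and 5.58 CPM in separately housed Tcra-/- mice, and 19.9, 21.7 and 24.8 CPM in wild-type mice. No group overlapped the next in the order co-housed, Rag1-/-, wild type, separately housed. Slfn2 was 2.69-fold higher in Rag1-/- than in wild-type mice (log2 fold change 1.43, SE 0.11, adjusted p = 1.02e-07, edgeR's quasi-likelihood test with Benjamini-Hochberg adjustment over all 15866 genes, as for every adjusted p below). It was 12.6-fold higher in co-housed than in separately housed Tcra-/- mice (3.66, SE 0.12, adjusted p = 2.23e-11). Against wild type it was lower in separately housed mice (-1.89, SE 0.12, adjusted p = 6.03e-08) and higher in co-housed mice (1.77, SE 0.11, adjusted p = 2.71e-08). Here and below, called means an adjusted p under 0.01, the level the design text set.

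Slfn1, the other short member, was rare. It had 0.710, 0.877 and 0.960 CPM in Rag1-/- mice, 2.51, 4.14 and 3.0 CPM in co-housed Tcra-/- mice, 0.0878, 0.466 and 0.219 CPM in separately housed Tcra-/- mice, and 1.69, 2.18 and 2.10 CPM in wild-type mice. The separately housed values rest on 4, 20 and 10 reads. The 4 groups did not overlap, but in an order unlike that of Slfn2, with co-housed first, then wild type, Rag1-/- and separately housed. Slfn1 was 2.33-fold lower in Rag1-/- than in wild-type mice (log2 fold change -1.22, SE 0.32, adjusted p = 0.0085). It was 12.5-fold higher in co-housed than in separately housed Tcra-/- mice (3.65, SE 0.37, adjusted p = 8.49e-07). Against wild type it was lower in separately housed mice (-2.95, SE 0.38, adjusted p = 3.95e-05), and in co-housed mice the difference of 0.70 (SE 0.30) did not pass (adjusted p = 0.0921). The lower level in Rag1-/- mice was no longer called without any 1 of the 6 mice compared, or without the separately housed mouse TCRaSepxT4, with adjusted p up to 0.0378.

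Of the intermediate members, Slfn4 had 76.5, 104 and 157 CPM in Rag1-/- mice, 129, 133 and 109 CPM in co-housed Tcra-/- mice, 14.9, 13.0 and 12.2 CPM in separately housed Tcra-/- mice, and 14.0, 13.5 and 15.2 CPM in wild-type mice. The Rag1-/- and co-housed groups overlapped, as did the separately housed and wild-type groups, and the lowest mouse of the upper pair stood at 76.5 CPM against 15.2 CPM for the highest of the lower pair. Slfn4 was 7.91-fold higher in Rag1-/- than in wild-type mice (log2 fold change 2.98, SE 0.23, adjusted p = 4.63e-06). It was 9.25-fold higher in co-housed than in separately housed Tcra-/- mice (3.21, SE 0.23, adjusted p = 1.36e-06). Co-housed mice were above wild type by 3.12 (SE 0.23, adjusted p = 5.94e-06), and the value for separately housed mice, -0.09 (SE 0.23), did not pass (adjusted p = 0.809).

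Slfn3, the near copy of Slfn4, was the rarest member on average over the mice. Its range was 0.171 to 0.450 CPM in Rag1-/- mice, 0.400 to 0.572 CPM in co-housed Tcra-/- mice, 0.163 to 0.395 CPM in separately housed Tcra-/- mice and 0.476 to 0.894 CPM in wild-type mice, on 7 to 40 reads per library. Each group overlapped the next in order of level. No comparison was called, with log2 fold changes of -1.14 (SE 0.42, adjusted p = 0.0462) for Rag1-/- against wild type and 0.85 (SE 0.44, adjusted p = 0.119) for co-housed against separately housed mice, and of -1.34 (SE 0.42, adjusted p = 0.0289) and -0.49 (SE 0.40, adjusted p = 0.39) for separately housed and co-housed mice against wild type. The part of reads shared with Slfn4 in these values was not tested.

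Among the long members, Slfn5 had 31.7, 53.3 and 60.8 CPM in Rag1-/- mice, 59.1, 82.3 and 43.2 CPM in co-housed Tcra-/- mice, 8.45, 9.55 and 8.05 CPM in separately housed Tcra-/- mice, and 9.72, 11.6 and 15.6 CPM in wild-type mice. Rag1-/- and co-housed mice overlapped, and both groups lay above the others without overlap. Slfn5 was 3.95-fold higher in Rag1-/- than in wild-type mice (log2 fold change 1.98, SE 0.31, adjusted p = 0.001). It was 7.09-fold higher in co-housed than in separately housed Tcra-/- mice (2.83, SE 0.32, adjusted p = 6.16e-05). Against wild type it was higher in co-housed mice (2.32, SE 0.31, adjusted p = 0.000491), and the value in separately housed mice, -0.50 (SE 0.32), did not pass (adjusted p = 0.292).

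Slfn8 went the other way from Slfn5 in Rag1-/- mice. It had 1.74, 2.44 and 1.75 CPM in Rag1-/- mice, 7.37, 6.56 and 5.35 CPM in co-housed Tcra-/- mice, 1.84, 3.49 and 1.92 CPM in separately housed Tcra-/- mice, and 3.98, 3.85 and 3.94 CPM in wild-type mice. Only the Rag1-/- and separately housed groups, the lowest, overlapped. Slfn8 was 1.98-fold lower in Rag1-/- than in wild-type mice (log2 fold change -0.99, SE 0.23, adjusted p = 0.00383). It was 2.66-fold higher in co-housed than in separately housed Tcra-/- mice (1.41, SE 0.23, adjusted p = 8.14e-05). The lower level in Rag1-/- mice was not called without RAG1x3163, RAG1x3168 or any 1 wild-type mouse (adjusted p up to 0.0206). Against wild type the values were -0.70 (SE 0.23, adjusted p = 0.0353) in separately housed and 0.71 (SE 0.22, adjusted p = 0.0225) in co-housed mice, neither called. Without the separately housed mouse TCRaSepxT3 both were called, at -1.06 (adjusted p = 0.00242) and 0.71 (adjusted p = 0.00609).

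Slfn9, the near copy of Slfn8, was more abundant, with 8.43, 9.43 and 13.3 CPM in Rag1-/- mice, 16.3, 15.6 and 8.17 CPM in co-housed Tcra-/- mice, 6.39, 6.94 and 3.28 CPM in separately housed Tcra-/- mice, and 7.09, 5.91 and 7.54 CPM in wild-type mice. Its order of groups was that of Slfn4 and Slfn5, with narrower gaps, and again the Rag1-/- and co-housed groups overlapped each other but neither of the others. It was 2.41-fold higher in co-housed than in separately housed Tcra-/- mice (log2 fold change 1.27, SE 0.31, adjusted p = 0.00516). That call was lost without TCRaCox3155, TCRaCox3156, TCRaSepxT2 or TCRaSepxT4 in turn (adjusted p up to 0.0211) and under 2 other settings. In Rag1-/- against wild-type mice the value of 0.60 (SE 0.31) did not pass (adjusted p = 0.168), although all 3 Rag1-/- mice were above all 3 wild-type mice. Against wild type the other values were -0.31 (SE 0.31, adjusted p = 0.521) in separately housed and 0.96 (SE 0.31, adjusted p = 0.0356) in co-housed mice, and the second was called without TCRaCox3157 (1.22, adjusted p = 0.00514).

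**Figure D2:**
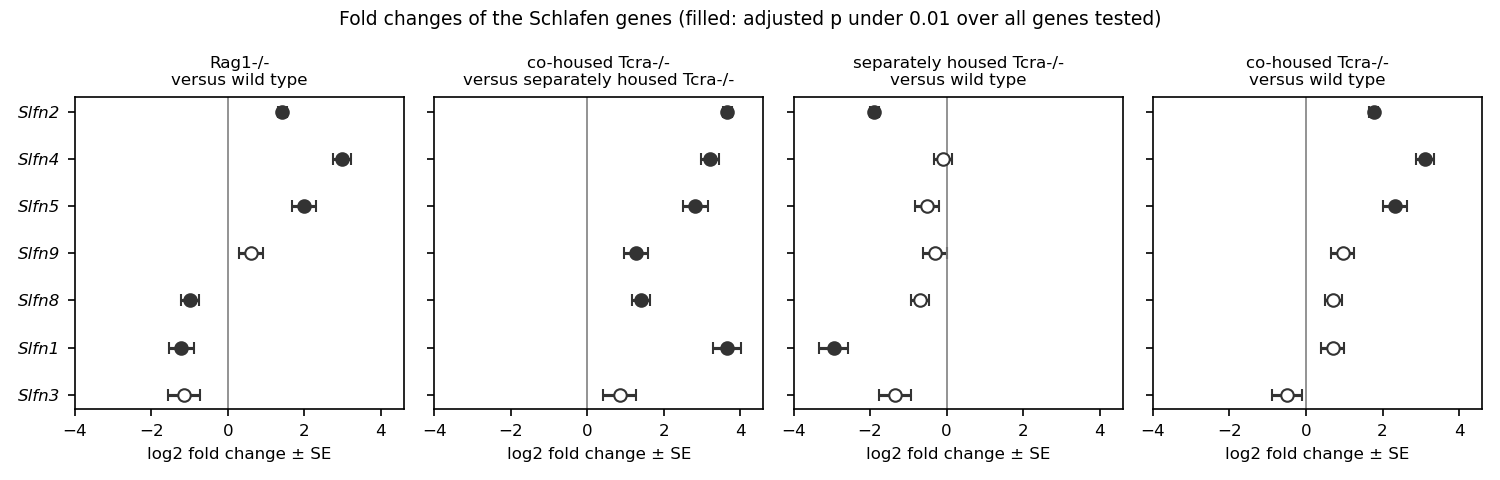
Log2 fold change (horizontal axis, first-named group over the second) with its SE of each of the 7 genes in 4 comparisons, from the fit to all 12 libraries. Filled points passed an adjusted p under 0.01, and Slfn2, Slfn4 and Slfn5 were filled and above 0 in both stated comparisons.

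Counted over the family, 3 of 7 members were higher (Slfn2, Slfn4, Slfn5) and 2 lower (Slfn1, Slfn8) in Rag1-/- than in wild-type mice. Over all genes tested, 9.42% were called higher and 11.5% lower. All 3 Rag1-/- libraries lay above all 3 wild-type libraries for 4 members, as for 22.2% of all genes, and below for 3, as for 23.5%. The median log2 fold change of the 7 was 0.60, against -0.02 over all genes. Neither lower call held without RAG1x3163, RAG1x3168 or any 1 wild-type mouse, which left 3 members called. In no member did the 2 groups overlap.

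Between co-housed and separately housed Tcra-/- mice the family moved 1 way, with 6 of 7 members higher, none lower, and Slfn3 the exception. Of all genes 21.1% were called higher and 17.7% lower. For all 7 members every co-housed library lay above every separately housed library, as for 30.1% of all genes. The median was 2.83, against -0.01 over all genes.

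Each Tcra-/- group was also set against wild type. In separately housed mice 2 of 7 members were lower (Slfn1, Slfn2) and none higher, where 7.7% of all genes were lower and 6.06% higher. Their libraries lay below wild type for 5 members, as for 19.8% of all genes, and the median was -0.70, against 0.01 over all genes. In co-housed mice 3 of 7 were higher (Slfn2, Slfn4, Slfn5) and none lower, where 9.34% of all genes were higher and 9.19% lower. Their libraries lay above wild type for 6 members, as for 20.9% of all genes, and the median was 0.96, against 0.00 over all genes. These comparisons share mice with the stated ones, so their values are given side by side only.

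**Figure D3:**
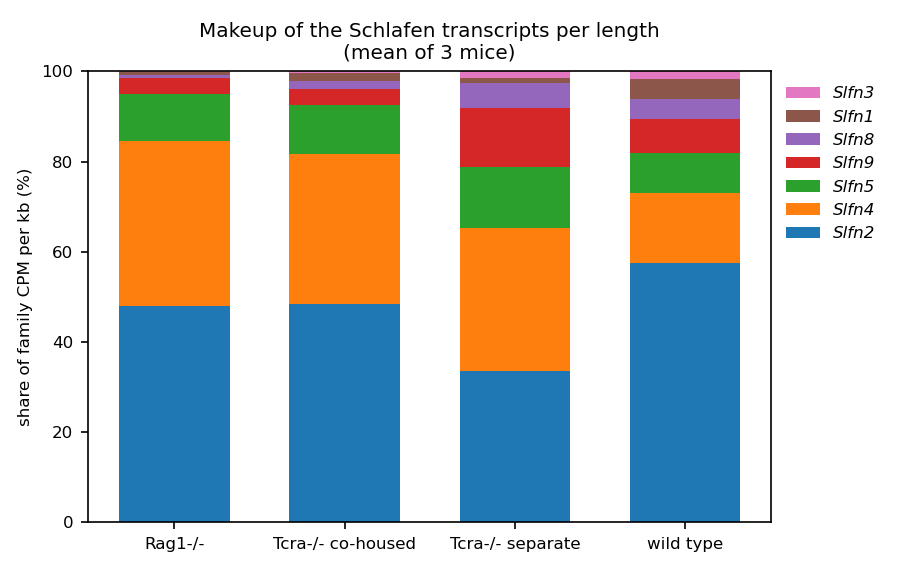
Share of each gene in the summed CPM per kb of the 7 genes (vertical axis, percent), as the mean of 3 mice in each group. Slfn2 and Slfn4 together fill most of each bar, and Slfn4 takes 36.6% in Rag1-/-, 33.3% in co-housed, 31.7% in separately housed and 15.6% in wild-type mice.

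Levels were compared between members per kilobase of the deposited gene length. In all 4 groups the order began with Slfn2, Slfn4, Slfn5 and Slfn9. This order and the shares below rest on that length, 1664 bases for Slfn2 and 3958 for Slfn4. By CPM alone Slfn4 averaged more than Slfn2 in Rag1-/- mice (113 against 59.6), co-housed mice (124 against 75.5) and separately housed mice (13.4 against 5.98). In wild-type mice it averaged less (14.2 against 22.1). In co-housed mice Slfn2 had 45.4 ± 4.62 CPM per kb and Slfn4 31.3 ± 3.26, and in wild-type mice Slfn2 had 13.3 ± 1.51 and Slfn4 3.6 ± 0.228 CPM per kb (SD, n = 3 each), without overlap in either group. In Rag1-/- and in separately housed mice the 2 genes overlapped. Slfn5 and Slfn9 overlapped in separately housed and wild-type mice, with 1.45 ± 0.130 and 1.44 ± 0.512 CPM per kb in separately housed mice and 2.05 ± 0.503 and 1.78 ± 0.217 in wild-type mice.

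The makeup of the family also differed between groups. Slfn2 made up 47.9% of the family's CPM per kb in Rag1-/-, 48.4% in co-housed, 33.5% in separately housed and 57.4% in wild-type mice, as means of 3 mice. Slfn4 ranged from 31.7 to 44.5% in Rag1-/- mice, 32.0 to 36.0% in co-housed mice and 27.2 to 34.9% in separately housed mice, all above the 14.8 to 16.6% of wild-type mice. Slfn9 had its highest mean share, 13.1%, in separately housed mice, where the abundant members were low, and 3.52% in Rag1-/-, 3.65% in co-housed and 7.69% in wild-type mice. Slfn1 and Slfn8 took 0.603 and 0.659% in Rag1-/- mice, against 4.63 and 4.26% in wild-type mice.

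Across the 12 mice, Slfn4 and Slfn5 had the most alike patterns of any pair of members, with Pearson's r of 0.976 in log2 CPM. Slfn2 and Slfn5 followed at 0.921, and Slfn3 and Slfn4 were the least alike at -0.03. The 12 mice form 4 groups, so r mostly compares group levels. The genes outside the family with the highest r were taken from 13268 of the tested genes, leaving out only those of the lowest mean level. For Slfn4 they were Mx2 (0.986), Oas2 (0.985) and Uso1 (0.984), and for Slfn5 Ifi44 (0.989), Eif2ak2 (0.988) and Mx2 (0.986). Mx2, Oas2 and Eif2ak2 encode interferon-induced antiviral proteins, and Uso1 a tethering factor of vesicle traffic. Ifi44, the closest to Slfn5, averaged 36.5 ± 16.3 CPM in Rag1-/- mice, 41.1 ± 14.4 in co-housed, 1.70 ± 0.390 in separately housed and 4.04 ± 1.63 CPM in wild-type mice (SD, n = 3 each).

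For Slfn2 the nearest were Ccnd1, which encodes cyclin D1 (r = 0.993), Gtse1 (0.990) and the DNA helicase gene Brip1 (0.987). Ccnd1 averaged 234 ± 25.6 CPM in Rag1-/-, 285 ± 22.3 in co-housed, 45.5 ± 5.50 in separately housed and 107 ± 15.6 CPM in wild-type mice (SD, n = 3 each), the order of groups seen for Slfn2. For Slfn1 they were Sp110 (0.960), Sfpi1 (0.958), which encodes the myeloid and B cell factor PU.1, and the Src-family kinase gene Fgr (0.953). For Slfn8 they were the interferon-inducible Ifi203 (0.925), the chemokine receptor gene Ccr7 (0.905) and Mycbp2 (0.896), and Ccr7 had 0.542 ± 0.264 CPM in Rag1-/-, 3.5 ± 0.822 in co-housed, 0.862 ± 0.222 in separately housed and 2.72 ± 0.0678 CPM in wild-type mice (SD, n = 3 each). For Slfn9 they were Gtf2h3 (0.982), Srsf10 (0.967) and Atad2 (0.963), and for Slfn3, at lower values, Commd4 (0.857), D16Ertd472e (0.847) and Cd33 (0.840). By Spearman's rho only 3 of these 21 choices recurred, D16Ertd472e, Eif2ak2 and Ifi44.

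**Figure D4:**
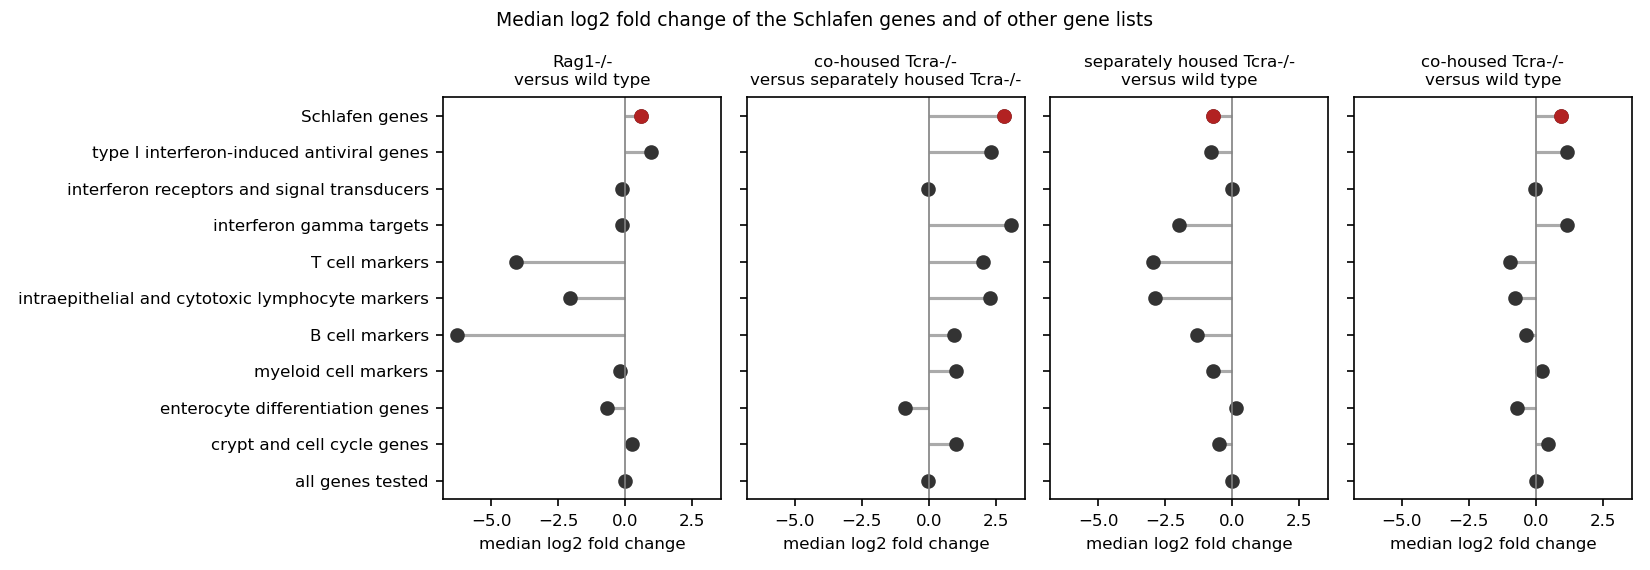
Median log2 fold change (horizontal axis) of the 7 Schlafen genes (red) and of 9 other gene lists and all genes tested (black) in 4 comparisons. Between co-housed and separately housed Tcra-/- mice the Schlafen median of 2.83 lay between those of the type I interferon list, 2.32, and the interferon gamma list, 3.06.

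Interferon genes were read from lists chosen with earlier results of these data known. Of all genes, 9.42% were called higher and 11.5% lower in Rag1-/- than in wild-type mice. In co-housed against separately housed mice 21.1% were higher and 17.7% lower. Against wild type, 6.06% were higher and 7.7% lower in separately housed mice, and 9.34% higher and 9.19% lower in co-housed mice. Of 22 type I interferon-induced antiviral genes, 9 were higher and none lower in Rag1-/- than in wild-type mice (median log2 fold change 0.96, against -0.02 over all genes). A fit to the 6 compared libraries gave 3 and DESeq2 16, omitting TMM factors, the scaling that allows for differences in composition between libraries, gave 5, and leaving out RAG1x3163 gave 17 and RAG1x3164 5. Ifi44 was 9.02-fold higher (3.17, SE 0.46, adjusted p = 0.000777), Oas2, which encodes an RNA-sensing enzyme, 7.52-fold (2.91, SE 0.37, adjusted p = 0.000231) and Mx2 5.41-fold (2.44, SE 0.20, adjusted p = 3.74e-07). With the 6 libraries alone Ifi44 and Oas2 were not called (adjusted p = 0.0101 and 0.0121). In co-housed against separately housed Tcra-/- mice 20 were higher and 1 lower (median 2.32), with the nucleic acid sensor Zbp1 41.2-fold higher (5.36, SE 0.30, adjusted p = 4.69e-07), Ifi44 24.3-fold (4.6, SE 0.51, adjusted p = 6.95e-05) and Ifit2 12.8-fold (3.68, SE 0.46, adjusted p = 0.000183). Against wild type, 4 were lower and none higher in separately housed mice (median -0.78), a count that moved widely. It was 13 with the 6 libraries alone, 8 by DESeq2, 11 without RAG1x3163 and 7 without RAG1x3168, but 2 without RAG1x3164 or TMM factors and 1 without WTB6x3160, WTB6x3167 or any 1 separately housed mouse. In co-housed mice 15 were higher and none lower than in wild-type mice (median 1.17), and 9 without any 1 wild-type mouse. In each comparison the sign of the median was that of the Schlafen genes. The crypt and cell cycle list described below had the same signs, with medians of 0.25, 1.005, -0.50 and 0.48 in the order given here.

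Interferon gamma targets were read the same way. Of 18, none was higher and 2 were lower in Rag1-/- than in wild-type mice (median -0.10), where 9.42% of all genes were higher and 11.5% lower. The 2 were the tryptophan-degrading enzyme Ido1 (-2.29, SE 0.39, adjusted p = 0.00202, not called without RAG1x3163 or RAG1x3164, with adjusted p up to 0.0118) and the MHC class II regulator Ciita (-0.90, SE 0.17, adjusted p = 0.00137). Over the settings tried, at most 1 was higher and 1 to 3 were lower. In co-housed against separately housed mice all 18 were higher (median 3.06), where 21.1% of all genes were. Of the GTPases on the list, Igtp was 31.9-fold higher (4.99, SE 0.47, adjusted p = 3.02e-05), Tgtp1 20.9-fold (4.39, SE 0.56, adjusted p = 4.26e-05) and Iigp1 18.5-fold (4.21, SE 0.48, adjusted p = 9.65e-05). Against wild type, 12 were lower in separately housed mice (median -1.999) and 7 higher in co-housed mice (median 1.18), where 7.7 and 9.34% of all genes were. The first count was 6 without TCRaSepxT3 or TCRaSepxT4 and 7 without WTB6x3160, and the second 1 without WTB6x3159, 4 without WTB6x3160, 2 with the 6 libraries alone and 13 by DESeq2.

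Of the 12 interferon receptors and signal transducers 1 in Rag1-/- mice, the receptor subunit Ifngr2, was lower than in wild-type mice (-0.42, SE 0.08, adjusted p = 0.000866), with a median of -0.12, and 5 were lower without TMM factors. With TMM factors, 11.5% of all genes (1820) were lower in that comparison, and without them 3218 genes were. In co-housed against separately housed mice 3 were higher and 4 lower (median -0.04), with Stat2 2.56-fold higher (1.36, SE 0.13, adjusted p = 1.15e-06), and the interferon lambda receptor subunit Il28ra 2.05-fold lower (-1.03, SE 0.09, adjusted p = 1.83e-07). Of all genes 21.1% were higher and 17.7% lower there.

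Cell type markers moved with the same comparisons, and their part in the Schlafen levels was not tested. All 16 T cell markers were lower in Rag1-/- than in wild-type mice (median -4.09), as were all 10 B cell markers (median -6.29) and 7 of 10 intraepithelial and cytotoxic lymphocyte markers (median -2.08). Of all genes 11.5% were lower. Cd3e was lower by -9.07 (SE 0.64, adjusted p = 2.51e-07), Cd79a by -8.80 (SE 0.49, adjusted p = 3.88e-07) and the chemokine gene Ccl5 by -3.33 (SE 0.49, adjusted p = 0.000838). Cd3e and Cd79a averaged 0.0158 and 0.0738 CPM in Rag1-/- mice, so the sizes of their fold changes rest on very few reads. That of Cd3e lay between -11.7 and -8.51 over the settings tried. Summed, T cell markers lay at 12.5 to 17.1 CPM in Rag1-/-, 45.2 to 92.8 in co-housed, 19.2 to 21.4 in separately housed and 113 to 163 CPM in wild-type mice. Slfn2, Slfn4 and Slfn5 were higher, and Slfn1 and Slfn8 lower, in these Rag1-/- mice.

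Myeloid markers were nearer to wild type in Rag1-/- mice, where 9.42% of all genes were higher and 11.5% lower. Of the 16 markers 1 was higher, Cd14 (0.72, SE 0.15, adjusted p = 0.00135), 1 lower, Cybb (-1.29, SE 0.20, adjusted p = 0.000255), and 14 were not called (median -0.20). Their sum was 223 to 249 CPM in Rag1-/-, 286 to 448 in co-housed, 151 to 189 in separately housed and 276 to 329 CPM in wild-type mice. Between co-housed and separately housed mice 14 of 16 myeloid (median 1.013), 14 of 16 T cell (median 2.02), all 10 intraepithelial and cytotoxic (median 2.28) and 5 of 10 B cell markers (median 0.95) were higher, and none was lower. Of all genes 21.1% were higher and 17.7% lower in this comparison. The B cell count was 8 without TCRaCox3157, and 3 without TCRaCox3155, TCRaCox3156, TCRaSepxT4 or TMM factors. Among them the macrophage lysozyme Lyz2 was 2.68-fold (1.42, SE 0.21, adjusted p = 0.00021), the granzyme gene Gzma 11.2-fold (3.49, SE 0.57, adjusted p = 0.000928, and 0.0144 with only the 6 libraries compared) and the costimulatory receptor gene Cd28 9.36-fold higher (3.23, SE 0.66, adjusted p = 0.00112). The neutrophil gene S100a8 had no read in separately housed mice. Intraepithelial and cytotoxic markers summed to 54.7 to 76.0 CPM in Rag1-/-, 54.2 to 155.6 in co-housed, 16.1 to 17.8 in separately housed and 187 to 318 CPM in wild-type mice, and B cell markers to 125 to 186 CPM in co-housed and 58.9 to 102 CPM in separately housed mice.

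Epithelial lists were counted next. Of 12 enterocyte differentiation genes 7 were lower in Rag1-/- than in wild-type mice (median -0.68) and 8 lower in co-housed than in separately housed mice (median -0.90), with none higher in either, where 11.5 and 17.7% of all genes were lower. Lactase, Lct, was 28.4-fold lower in Rag1-/- mice (-4.83, SE 0.62, adjusted p = 0.000447) and 51.8-fold lower in co-housed mice (-5.70, SE 0.64, adjusted p = 9.93e-05). Of 12 crypt and cell cycle genes 2 were higher in Rag1-/- mice (median 0.25), the larger being Birc5 (0.49, SE 0.09, adjusted p = 0.000675), and 9 in co-housed against separately housed mice (median 1.005), led by the topoisomerase Top2a (1.32, SE 0.21, adjusted p = 0.000424). Over all genes 9.42 and 21.1% were higher in these comparisons. The count of 2 was 0 without TMM factors and 1 without RAG1x3163, WTB6x3159 or WTB6x3160. Of the 5 tested genes on the ileum marker list 2, Chga and Vil1, were lower in each stated comparison, Chga by -0.85 (SE 0.14, adjusted p = 0.000259) in Rag1-/- mice. Vil1 is also on the enterocyte list, and the bile acid genes Fabp6 and Slc10a2 were not called in either comparison. The ileum count was 1 for Rag1-/- mice without RAG1x3163, RAG1x3164 or WTB6x3160. For co-housed against separately housed mice it was 1 without TCRaCox3157 or TCRaSepxT3 and 0 without TCRaSepxT4. The median of the 5 was -0.20 and -0.089 in these comparisons.

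The cell type, enterocyte and crypt lists were also read against wild type in the Tcra-/- groups. In separately housed mice all 16 T cell markers (median -2.96) and 10 of 16 myeloid markers (median -0.73) were lower, where 7.7% of all genes were. So were 9 of 10 intraepithelial and cytotoxic markers (median -2.90), 8 of 10 B cell markers (median -1.30) and 5 of 12 crypt and cell cycle genes (median -0.50). There 1 of 12 enterocyte genes was higher (median 0.15), where 6.06% of all genes were. The myeloid count was 2 without TCRaSepxT4, 4 without TCRaSepxT3 or WTB6x3167 and 6 without WTB6x3160, and the enterocyte count 3 without TCRaCox3155 or TCRaCox3156. For B cell markers the count was 5 without TCRaSepxT4 or WTB6x3167 and 10 with the 6 libraries alone. In co-housed mice 8 of 16 T cell markers (median -0.98) and 8 of 12 enterocyte genes (median -0.68) were lower, where 9.19% of all genes were, and 5 of 12 crypt and cell cycle genes higher (median 0.48), where 9.34% were. None of the 10 B cell markers was called (median -0.35). Of 10 intraepithelial and cytotoxic markers 1 was higher and 1 lower (median -0.76), with 0 to 1 higher and 0 to 4 lower over the settings tried. The T cell count was 5 without TCRaCox3155, TCRaCox3157, WTB6x3160 or WTB6x3167, the enterocyte count 4 with the 6 libraries alone, and the crypt count 3 without TCRaCox3155 or WTB6x3159 and 2 without TCRaCox3156, WTB6x3160 or TMM factors.

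**Figure D5:**
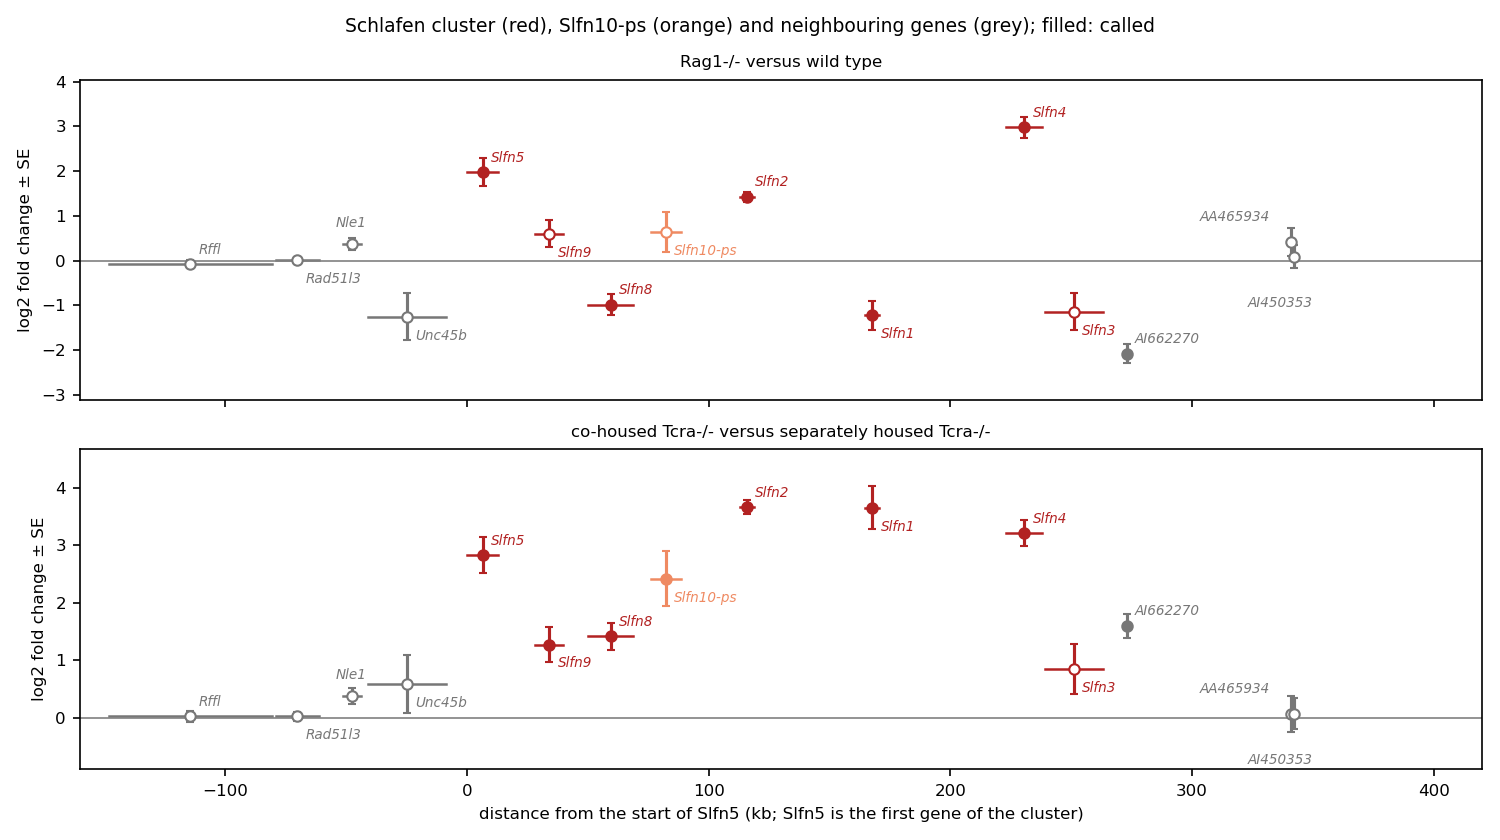
Log2 fold change with its SE (vertical axis) against distance from the start of Slfn5 in kb (horizontal axis) for the Schlafen cluster and tested neighbours, with horizontal lines spanning each gene and filled points called. Of the neighbours drawn, AI662270 alone was called, lower in Rag1-/- mice and higher in co-housed mice, and Ap2b1, beyond the right edge of the cluster, is not drawn.

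Within 100 kb on either side of the cluster lie 12 further genes, of which 9 were tested. AI662270, directly beyond Slfn3, had 2.2 to 3.65 CPM in Rag1-/- mice, 6.26 to 10.7 in co-housed, 2.70 to 3.49 in separately housed and 11.99 to 12.4 CPM in wild-type mice. It was lower in Rag1-/- than in wild-type mice (log2 fold change -2.08, SE 0.21, adjusted p = 1.42e-06) and higher in co-housed than in separately housed mice (1.60, SE 0.21, adjusted p = 9.63e-06), the directions of Slfn1 and Slfn8. Ap2b1, a subunit of the clathrin adaptor, was lower in co-housed than in separately housed mice (-0.27, SE 0.07, adjusted p = 0.00365, not called without TCRaCox3155, TCRaCox3157 or TCRaSepxT4, with adjusted p up to 0.0213), and Rffl, Rad51l3, Nle1, Unc45b, AA465934 and AI450353 were not called in either stated comparison. The pseudogene Slfn10-ps, within the cluster, was 5.32-fold higher in co-housed than in separately housed mice (2.41, SE 0.48, adjusted p = 0.000556), and its value in Rag1-/- against wild-type mice, 0.64 (SE 0.45), did not pass (adjusted p = 0.308). Of the other rows whose symbols begin with Slfn, Slfn14-ps and Slfnl1, on chromosome 4, had at most 3 and 7 reads in any library and were not tested.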

How the data were processed

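RNA of the terminal ileum of 12 mice was taken up in Trizol and made into stranded mRNA libraries with an Illumina kit, per the labels' protocols. The submitters' processing notes name bcl2fastq, TopHat2 2.0.11, Bowtie2 2.2.2.0, featureCounts, Subread 1.4.5-p1 and DESeq2 1.12.3, and the build mm9. The values used are raw counts per gene, deposited without normalization, per the file headers. The annotation, the strand setting and the handling of reads that match several genes were not given in the sources used here. Gene lengths and coordinates are those deposited by the authors, and another table with log-scale values was not used.

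Genes passing filterByExpr (minimum count 10) of edgeR 4.0.16 in R 4.3.3 were fitted with TMM factors and a robust quasi-likelihood model of all 12 libraries, 1 term per group with 8 residual degrees of freedom. Tests were two-sided, with Benjamini-Hochberg adjustment over 15866 genes. The SE is the size of the log2 fold change divided by the square root of F. CPM are counts over the TMM-scaled library size, and CPM per kb divide them by the deposited length. The procedure was tested on simulated data.

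The members and all gene lists were chosen with earlier results of these data known. Named genes were all members, other Slfn symbols, genes within 100 kb of the cluster, the 3 genes with the highest Pearson r to each member, and from each list and stated comparison up to 3 called genes with the largest changes, of which some are given only in the counts and a few are not reported here. Lists were described by counts and medians, with no set test. Promoter windows are from RefSeq and coding sequences from GENCODE vM21, aligned with Biopython 1.88 as a substitute for protein sequences, a choice made after the reference was seen. Alternatives were DESeq2 1.42.0, library size alone, no filter, 6 libraries, each mouse left out, summed paralogs and Spearman's rho. Their use on list genes was added after seeing the data.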

Additional observations from a re-analysis of the deposited data

How the results depend on the processing

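Of 448 recomputed fold changes of the 28 member results, 426 kept direction and side of the threshold, 18 lost a call and 4 gained one. Summing near copies is no test of the rarer copy, since the sum follows the more abundant one by construction: Slfn3 with Slfn4 gave 2.92 in Rag1-/- and 3.06 in co-housed mice, and Slfn8 with Slfn9 0.20 in Rag1-/- mice, each against wild type and opposite in sign to the rarer copy alone. Slfn9 in co-housed against separately housed mice lost its call without TMM factors (adjusted p = 0.0103) or with 6 libraries (0.0233), and Slfn8 in co-housed mice against wild type was called with 6 libraries (0.00874). Leaving out each mouse in turn gave 3 to 5 members called in Rag1-/- against wild type (5 with all mice) and 1281 to 2457 genes of the whole table called in separately housed mice against wild type (2182 with all mice), lowest without TCRaSepxT4. Of 57 fold changes of genes outside the family, 27 of 912 recomputed values lost or gained a call and none turned direction, an alternative chosen after seeing the data. Spearman's rho shared 3 of the 21 most similar genes. Without TMM factors the median of all genes moved to -0.19 in Rag1-/- against wild type, -0.12 in co-housed against separately housed mice and -0.12 in co-housed mice against wild type. Higher and lower calls were then 713 and 3218, 2480 and 3695, and 795 and 2449, in place of 1494 and 1820, 3347 and 2809, and 1482 and 1458. No paired analysis was possible because the labels give the groups no shared replicate numbers. Depth limits Slfn1 and Slfn3, which had as few as 4 and 7 reads per library.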
